A study of Mus musculus with 8 samples.

Results

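Transcription factors that build the myeloid and erythroid-megakaryocytic lineages were followed in mouse whole blood after supply of cobalt chloride (CoCl2). The 10 genes are Spi1, Cebpa, Cebpb, Cebpd, Gfi1, Runx1, Irf8, Klf4, Klf2 and Nfe2. They were taken by a fixed list of Affymetrix Mouse430 2.0 probe set IDs, each paired with its gene in that list, which was drawn up with earlier results of these data known. The list holds 15 of the 45101 probe sets on the array, because Cebpb, Irf8 and Klf4 are each read by a pair of probe sets and Runx1 by 3.

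The study holds 8 arrays of mouse whole-blood RNA, 4 from animals under chemical hypoxia and 4 controls, each from 100 microlitres of vena cava blood. Chemical hypoxia here means CoCl2, which keeps hypoxia-inducible factors from being degraded although oxygen is normal, supplied at 200 ng per 100 ml per day with blood taken after 15 days. Both groups were kept under room conditions according to the treatment text, while the titles of the control arrays name a chamber, so the housing of the controls is uncertain. The sources used here do not give strain, sex, age or route of supply, nor is it stated that every array came from its own animal, so p-values describe the spread between these arrays.

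In the marrow these factors act as a network. PU.1, the product of Spi1, and the C/EBP family switch on granulocyte and monocyte genes, Gfi1 represses monocytic genes in favour of neutrophils, and Irf8 and Klf4 act on the monocyte side. Runx1 is needed for definitive blood formation, Klf2 holds T cells and monocytes in a quiescent state, and Nfe2 is the factor of platelet release and globin gene control. Circulating blood is a mixture of cells that use different members of the network. In such a bulk sample, a change in the number of cells of a type cannot be told apart from a change of RNA per cell.

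All values below are log2 expression on the scale of the authors' processing, restored from a table that had lost its decimal points. A difference is the CoCl2 mean minus the control mean, the threshold is 0.05 for limma's p adjusted by Benjamini-Hochberg, and the fit covered the 22518 probe sets in the upper 50% by mean value. Of the 15 probe sets, 13 lay in that range, covering 9 genes. The other pair, 1417679_at of Gfi1 and 1427844_a_at of Cebpb, stayed below it and are given as values.

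Nfe2 rose by 2.23 on the log2 scale, and Klf4 fell by 1.95 in its brighter probe set. Cebpd was higher by 2.29, but it was in the tested range only through its CoCl2 arrays, and its call was lost without the filter on low values (limma adjusted p = 0.0994). Klf2 and 1 of the 3 Runx1 probe sets rose by less, 0.49 and 0.63. In all, 4 of 13 tested probe sets, Cebpd among them, were called higher and 1 lower, against 28.6% of all tested probe sets that rose and 16.5% that fell. The share past the threshold in either direction was 38.5% for these factors and 45.1% for all tested probe sets, so the list as a whole did not differ more often than the array. Their median absolute difference was 0.55, and that of all tested probe sets was 0.55 too. The signed median was 0.49 for the 13 and 0.19 for all, and 76.9% of the 13 had a positive difference against 60.2% of all. Groups without overlap were found in 5 of the 13 (38.5%), and in 45.5% of all tested probe sets.

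**Figure D1:**
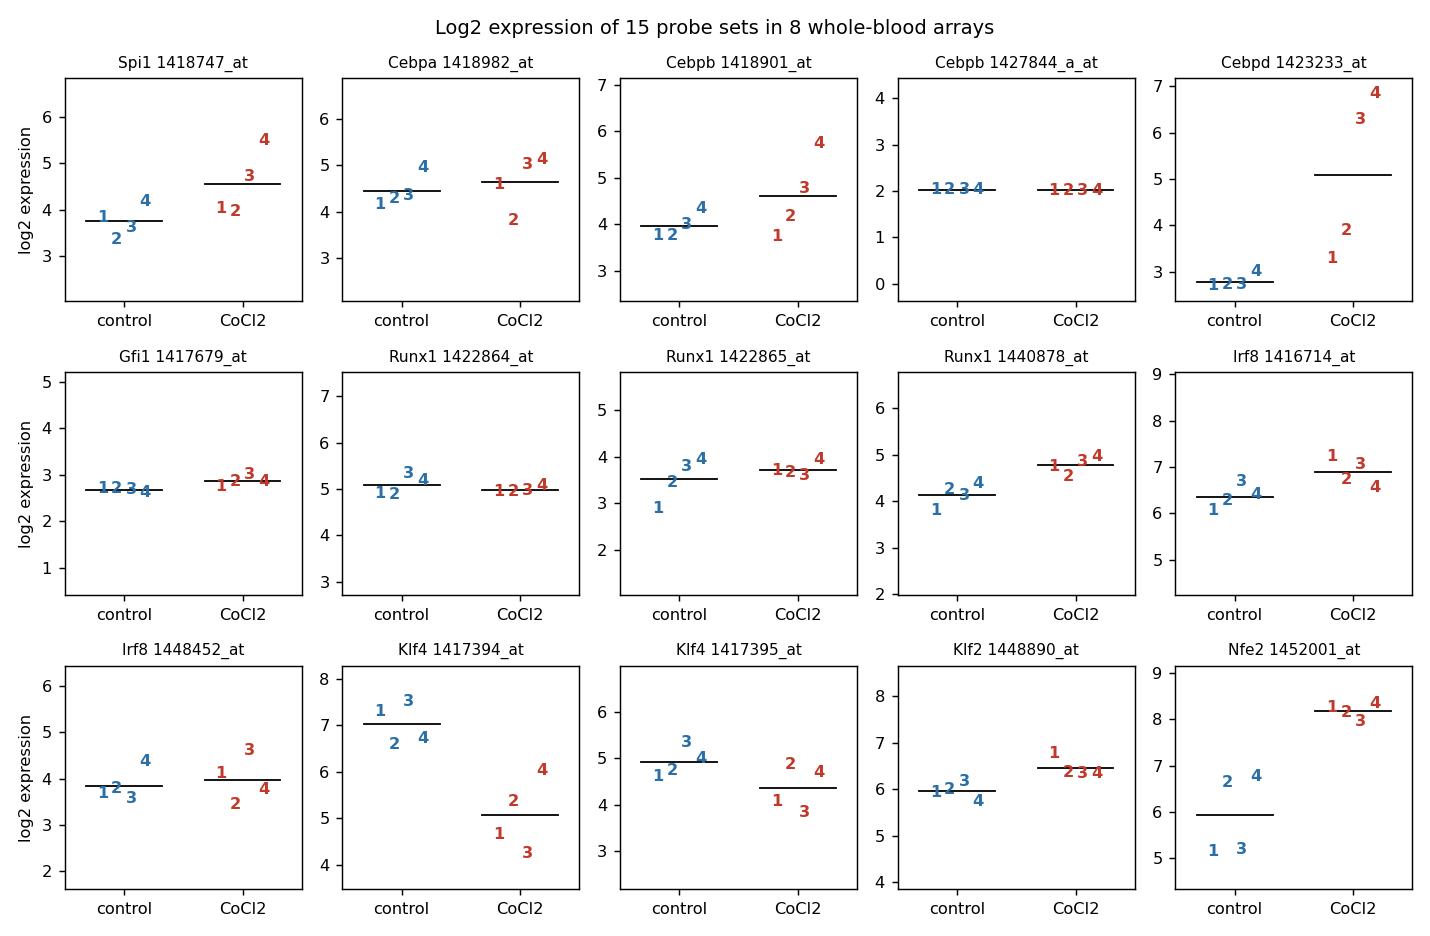
Log2 expression (vertical axes, each spanning the same number of units) of the 15 probe sets in the 4 control arrays (blue) and the 4 CoCl2 arrays (red); digits are the array numbers from the titles and black lines are group means. Nfe2 lies between 7.94 and 8.34 with CoCl2 and between 5.15 and 6.77 in controls, and Cebpd spreads from 3.29 to 6.83 within the CoCl2 group.

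**Figure D2:**
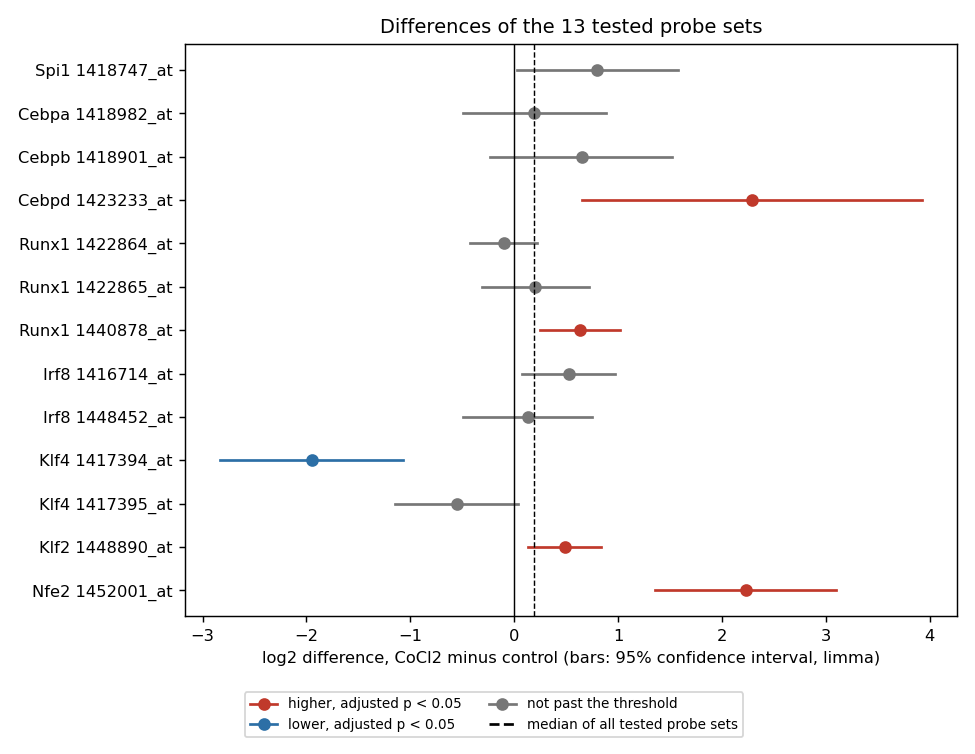
Log2 difference, CoCl2 minus control, of the 13 tested probe sets with 95% confidence intervals from limma. Red marks rises and blue falls past the threshold, grey the other probe sets, and the dashed line the median of all tested probe sets at 0.19.

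Nfe2 encodes the p45 subunit of NF-E2, which pairs with small Maf proteins at globin and megakaryocyte genes. Probe set 1452001_at stood at 8.25, 8.14, 7.94 and 8.34 in the CoCl2 arrays and at 5.15, 6.63, 5.20 and 6.77 in the control arrays. The groups did not overlap, the CoCl2 arrays lay close together and the control arrays split into a low and a high pair. Means were 8.17 ± 0.17 (SD, n = 4) and 5.94 ± 0.88 (SD, n = 4). The difference of 2.23 (SE 0.38, limma adjusted p = 0.00208) corresponds to 4.69-fold, with a 95% interval from 1.36 to 3.10 on the log2 scale. Only 0.95% of tested probe sets rose by more. The control spread was larger than that of all but 2.75% of tested probe sets. Nfe2 was past the threshold in all 18 alternative settings, with adjusted p up to 0.0133.

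PU.1 is the master regulator of the myeloid branch, and its level decides between myeloid and erythroid fates in progenitors. The Spi1 probe set 1418747_at read 4.03, 3.97, 4.71 and 5.50 with CoCl2 and 3.83, 3.36, 3.62 and 4.19 in controls. CoCl2 arrays 1 and 2 fell inside the control range, and arrays 3 and 4 lay above it. The difference of 0.80 (SE 0.34, limma adjusted p = 0.0839) did not pass the threshold, with a 95% interval from 0.03 to 1.58. It passed with array weights (adjusted p = 0.0478).

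The C/EBP factors are basic leucine zipper proteins that bind as pairs with one another. C/EBPα starts granulocyte commitment, C/EBPβ drives granulocyte production under stress, and C/EBPδ is an acute-phase factor induced by inflammatory signals. Cebpd had the largest difference of the 3. Its probe set 1423233_at read 3.29, 3.90, 6.29 and 6.83 with CoCl2 and 2.70, 2.72, 2.72 and 3.01 in controls. Every CoCl2 array lay above every control array, but arrays 1 and 2 only by a small margin and arrays 3 and 4 by a wide one. The means were 5.08 ± 1.75 (SD, n = 4) and 2.79 ± 0.15 (SD, n = 4), a difference of 2.29 (SE 0.72, limma adjusted p = 0.03) with an interval from 0.65 to 3.93. Its control mean lies under the lowest mean tested, 2.90, so the probe set entered the fit through its CoCl2 arrays, and in a fit of all probe sets the adjusted p was 0.0994. The linear fold of 4.9 starts from a control mean close to the array median (2.86 in controls, 44.4% of probe sets lay lower), so its size depends on the low end of the scale. The CoCl2 spread was exceeded by 0.218% of tested probe sets. The call was lost without CoCl2 array 3 (difference 1.89, adjusted p = 0.0811), without CoCl2 array 4 (1.71, 0.0596), and without control arrays 1 (0.0678), 2 (0.0617) or 3 (0.069).

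Cebpb and Cebpa did not pass. Probe set 1418901_at of Cebpb read 3.74, 4.17, 4.78 and 5.74 with CoCl2 and 3.76, 3.76, 3.99 and 4.33 in controls. Arrays 3 and 4 of the CoCl2 group exceeded all controls, and array 1 lay below all of them. The difference was 0.65 (interval -0.23 to 1.52, limma adjusted p = 0.195). The other Cebpb probe set, 1427844_a_at, lay between 2.01 and 2.04 on all 8 arrays, a level with fewer than 1% of probe sets below it (0.362% with CoCl2, 0.382% in controls), so it gave no reading of Cebpb. Probe set 1418982_at of Cebpa read 4.59, 3.82, 5.02 and 5.13 with CoCl2 and 4.17, 4.29, 4.36 and 4.96 in controls, with overlap in both directions. Its difference was 0.19 (interval -0.49 to 0.88, limma adjusted p = 0.62), the same as the median of all tested probe sets.

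The C/EBP genes were also compared with each other within each array, which removes any shift common to all probe sets of an array. The change of Cebpa minus that of Cebpd was -2.10, and that of Cebpb minus that of Cebpd -1.64. Both are given as a description, since they rest on control values of Cebpd of 2.70 to 3.01, near the array median, and on a probe set tested only because its CoCl2 arrays were high. The changes of Cebpa and Cebpb gave a difference of -0.45 (Cebpa minus Cebpb, two-sided exact permutation p = 0.286). In this test, run on 10 pairs of probe sets of 1 gene or family and adjusted over them, 0.0286 is the smallest p that 4 arrays against 4 allow. That p was reached by 6 of the 10 pairs, the Cebpd pairs among them. The adjusted permutation p of 0.0476 given below for Runx1 and Klf pairs therefore rests in part on the Cebpd pairs. Adjusted without those, it would lie above 0.05, so it is not counted as a call.

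Spi1, Cebpa, Cebpb and Cebpd shared an arrangement inside the CoCl2 group. CoCl2 array 4 was the highest of its group for all of them and array 3 the next, while array 1 or 2 was the lowest. Array 4 was also the highest control array for each of these genes, at 4.19 for Spi1, 4.96 for Cebpa, 4.33 for Cebpb and 3.01 for Cebpd. Over the whole list, CoCl2 array 4 was highest in its group for 9 of 13 probe sets and in 24.4% of all tested probe sets, and control array 4 for 8 of 13 and in 34.1% of all. The same arrays stood apart in the whole data: on principal component 2 the CoCl2 arrays scored 37.79, 28.80, -12.87 and -52.03, and on component 3 control array 4 scored -61.62 while the other controls lay between 10.38 and 21.54. Their part in the values of these genes was not tested, and with 4 arrays per group a relation within a group cannot be tested.

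**Figure D3:**
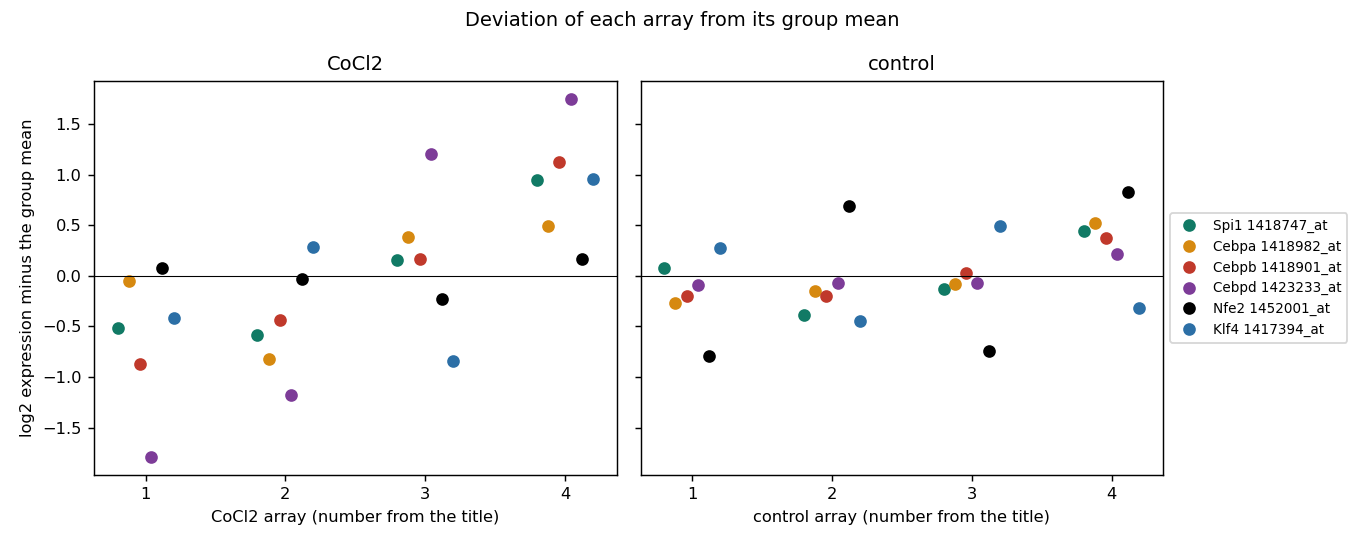
Deviation of each array from its group mean, in log2 units, for Spi1, Cebpa, Cebpb, Cebpd, Nfe2 and the brighter Klf4 probe set, in the CoCl2 group (left) and the controls (right); points are shifted sideways for legibility. Spi1 and the C/EBP genes lie highest on array 4 in both groups, while Nfe2 varies by less within the CoCl2 group than within the controls.

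Gfi1, a zinc finger repressor needed for neutrophil maturation, lay near the middle of all probe sets. Its probe set 1417679_at read 2.74, 2.86, 3.00 and 2.85 with CoCl2 and 2.70, 2.71, 2.69 and 2.62 in controls. The groups did not overlap, though the gap was small beside the size of the scale. The means were 2.86 ± 0.10 (SD, n = 4) and 2.68 ± 0.04 (SD, n = 4). One of these values, in control array 1, came from a cell with more than one possible reading. In a fit of all probe sets without the filter the difference of 0.18 had a limma adjusted p of 0.061.

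Runx1 is the DNA-binding partner of CBFβ and is transcribed from a distal and a proximal promoter. Its probe sets did not move alike. Probe set 1440878_at read 4.74, 4.52, 4.85 and 4.96 with CoCl2 and 3.79, 4.24, 4.13 and 4.38 in controls, with no overlap. It rose by 0.63, or 1.55-fold (limma adjusted p = 0.0151, SE 0.17), and missed the threshold after quantile normalization (0.49, adjusted p = 0.0536). Probe set 1422864_at read 4.95, 4.94, 4.96 and 5.08 against 4.91, 4.89, 5.34 and 5.18, and its interval ran from -0.42 to 0.22 (limma adjusted p = 0.583). Probe set 1422865_at read 3.70, 3.66, 3.59 and 3.93 against 2.89, 3.44, 3.78 and 3.95, with an interval from -0.31 to 0.72 (limma adjusted p = 0.484). Both of these overlapped between the groups. Within arrays, the change of 1422864_at minus that of 1440878_at was -0.73 (two-sided exact permutation p = 0.0286, adjusted 0.0476) and that of 1422865_at minus 1440878_at -0.43 (exact permutation p = 0.0571, adjusted 0.0816). Which Runx1 transcripts each probe set reads is not given in the files.

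Both Runx1 promoters are shown because the probe sets of the gene disagree. They are the 250 bases before each RefSeq start on GRCm38.p6, minus strand, at chr16:92826075-92826324 (distal) and chr16:92697330-92697579 (proximal), with the hypoxia-inducible factor core motif in capitals.
Runx1 distal: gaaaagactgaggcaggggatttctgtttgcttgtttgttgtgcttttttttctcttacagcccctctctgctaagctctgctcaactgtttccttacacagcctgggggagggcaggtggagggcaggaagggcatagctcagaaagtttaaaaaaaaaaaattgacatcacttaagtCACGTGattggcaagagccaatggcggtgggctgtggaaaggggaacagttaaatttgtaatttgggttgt
Runx1 proximal: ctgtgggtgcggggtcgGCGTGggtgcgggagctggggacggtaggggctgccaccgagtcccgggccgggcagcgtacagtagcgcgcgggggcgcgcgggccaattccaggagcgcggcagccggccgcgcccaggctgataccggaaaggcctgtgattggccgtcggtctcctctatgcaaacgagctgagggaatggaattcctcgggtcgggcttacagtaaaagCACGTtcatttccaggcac
The motif searched was ACGTG or GCGTG on either strand. In the distal promoter the palindrome CACGTG gives overlapping matches on both strands, and the proximal promoter holds separate matches. At least 1 match was found in 38.6% of 32851 mouse promoters in windows of this length, and in 5 of the 10 promoters of the 7 member genes in the RefSeq table (Cebpa, Cebpb, Gfi1, Irf8, Klf2, Klf4 and Runx1).

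Irf8, the interferon regulatory factor of monocyte and dendritic cell development, did not pass in either probe set. The brighter one, 1416714_at, read 7.22, 6.72, 7.06 and 6.55 with CoCl2 and 6.06, 6.28, 6.69 and 6.41 in controls. The highest control array reached into the CoCl2 range. Its difference of 0.53 (SE 0.20, limma adjusted p = 0.0555) had an interval from 0.08 to 0.97, and it passed without CoCl2 array 4 (0.64, adjusted p = 0.0335), without control array 3 (0.64, 0.0395) or with array weights (0.57, 0.0308). Probe set 1448452_at read 4.11, 3.45, 4.60 and 3.76 against 3.67, 3.79, 3.57 and 4.37, with an interval from -0.49 to 0.75 (limma adjusted p = 0.719). The changes of the Irf8 probe sets differed by 0.40 (two-sided exact permutation p = 0.229).

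Klf4 and Klf2 belong to the Krüppel-like zinc finger family, and Klf4 fell while Klf2 rose on the scale as restored. Klf4 is known for inflammatory monocyte differentiation and for barrier epithelia. Its probe set 1417394_at read 4.66, 5.37, 4.24 and 6.04 with CoCl2 and 7.31, 6.58, 7.52 and 6.71 in controls. All CoCl2 arrays lay below all controls. The means were 5.08 ± 0.79 (SD, n = 4) and 7.03 ± 0.46 (SD, n = 4). The log2 level fell by 1.95, or 3.87-fold (limma adjusted p = 0.00415, SE 0.39), and 4.16% of tested probe sets fell by more. The call held with each array left out in turn. With arrays centred on bioB and bioC, bacterial RNAs added as hybridisation controls, the difference was -0.13 (limma adjusted p = 0.696).

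The other Klf4 probe set, 1417395_at, read 4.07, 4.88, 3.84 and 4.69 with CoCl2 and 4.62, 4.74, 5.34 and 5.0 in controls, with overlap. Its difference was -0.55 (interval -1.15 to 0.04, limma adjusted p = 0.113), and it turned to 1.26 after centring on bioB and bioC. Within arrays the change of 1417394_at minus that of 1417395_at was -1.40 (two-sided exact permutation p = 0.0286, adjusted 0.0476). This pair was tested after values were seen, and its adjusted p rests in part on the Cebpd pairs. The unlike size of the change in the Klf4 probe sets is therefore given as a description.

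Klf2, a factor of quiescent T cells and of endothelium, had the smallest change past the threshold in the list. Probe set 1448890_at read 6.77, 6.36, 6.34 and 6.33 with CoCl2 and 5.94, 6.0, 6.16 and 5.74 in controls. The groups did not overlap, and CoCl2 array 1 stood above the other arrays of its group. The difference was 0.49 (SE 0.16, limma adjusted p = 0.0316), or 0.30 above the median of all tested probe sets. It was no longer past the threshold after median centring (0.35, adjusted p = 0.103) or quantile normalization (0.16, 0.448). It was lost too without CoCl2 arrays 1 (0.38, adjusted p = 0.0708), 2 (0.52, 0.05) or 3 (0.52, 0.052) and without control arrays 1 (0.48, 0.0645), 2 (0.50, 0.056) or 4 (0.41, 0.0626).

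The Klf genes were also compared within arrays, where a shift common to all probe sets cancels. Within arrays the change of 1417394_at (Klf4) minus that of Klf2 was -2.44, and that of 1417395_at minus Klf2 -1.04 (two-sided exact permutation p = 0.0286 each, adjusted 0.0476). That adjusted p is shared by 6 pairs at the smallest p, the Cebpd pairs among them. Adjusted without those, it would lie above 0.05, so both differences are given as a description. The latter had an exact permutation p of 0.0571 after quantile normalization. The promoters of this pair are shown because the genes of 1 family differed in direction. They are the 250 bases before the RefSeq start on GRCm38.p6, Klf4 at chr4:55532476-55532725 on the minus strand and Klf2 at chr8:72318812-72319061 on the plus strand, with the same motif in capitals.
Klf4: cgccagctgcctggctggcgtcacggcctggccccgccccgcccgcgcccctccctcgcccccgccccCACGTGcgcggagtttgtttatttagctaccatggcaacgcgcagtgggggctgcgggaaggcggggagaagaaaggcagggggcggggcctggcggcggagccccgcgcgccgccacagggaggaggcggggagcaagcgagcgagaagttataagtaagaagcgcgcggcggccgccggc
Klf2: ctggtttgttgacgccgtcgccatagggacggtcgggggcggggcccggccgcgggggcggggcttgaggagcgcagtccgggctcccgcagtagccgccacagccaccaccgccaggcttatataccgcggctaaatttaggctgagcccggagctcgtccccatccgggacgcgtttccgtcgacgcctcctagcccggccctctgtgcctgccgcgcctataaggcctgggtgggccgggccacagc
The Klf4 window holds CACGTG, and the Klf2 window holds no match of the motif searched. A match describes the sequence and was not tied to binding here.

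SAM results in the authors' deposited table cover 13 of the 15 probe sets, the same that were tested above. In the authors' deposited table, 8 of them have a positive score at a q-value under 5% (47.6% of all its probe sets do) and 2 a negative one (21.5%). Nfe2 has a log2 difference of 1.78 and a q-value of 0.00651% in the authors' deposited table, and Cebpd 2.55 and 0.023%. For Klf4 the authors' deposited table gives -1.73 (q = 0.0664%) and -0.64 (q = 0.77%). Spi1 (0.80, q = 0.498%), Cebpb (0.64, q = 0.77%) and both Irf8 probe sets (0.54, q = 0.214%, and 0.39, q = 4.06%) pass in the authors' deposited table and did not pass in limma. Cebpa, at 0.43, has a q-value of 5.52% in the authors' deposited table. Some of these differences depart from those of the restored values, so the contrast with limma is not one of test alone. The restored differences were 2.23 for Nfe2, 0.19 for Cebpa and 0.13 for Irf8 1448452_at, while Spi1 had 0.80 in both. The cause was not tested.

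The scale of the arrays bears on every direction given here. The bioB and bioC controls read 11.34 ± 0.13 (SD, n = 4) on the CoCl2 side, below the 13.16 ± 0.22 (SD, n = 4) of the controls. Control arrays 2 and 4, where Nfe2 was higher, read 12.97 each, and control arrays 1 and 3 read 13.29 and 13.40. On principal component 1, which separates the groups, control arrays 2 and 4 scored 66.6 and 49.3. Control arrays 1 and 3 scored 100.8 and 89.0, and the CoCl2 arrays -81.9 to -70.9. The relation of these measures to Nfe2 was not tested. Centred on them, 12 of the 13 probe sets were higher past the threshold and the median of all tested probe sets was 2.00, while median centring brought that median to 0.05 and quantile normalization to 0.10. Relative to the median of all tested probe sets the differences were 2.04 for Nfe2, 2.11 for Cebpd, 0.45 for Runx1 1440878_at, 0.30 for Klf2 and -2.14 for Klf4 1417394_at. Median array values over all probe sets were 2.79 to 2.80 with CoCl2 and 2.84 to 2.89 in controls, and beta-actin 3' minus 5' differences, a sign of RNA breakdown, were 1.61 to 1.79 and 1.75 to 1.99. The same measure for Gapdh went the other way, with 1.55 to 2.02 and 1.38 to 1.62. No batch is named for the arrays, and the ID numbers in the titles of the groups lie in separate ranges, so a batch cannot be told apart from the treatment. What part array differences have in these results was not tested. Marker genes of the blood cell types, other lineage factors and target genes of the members are not analysed here, since no table of gene names was at hand for those probe sets.

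**Figure D4:**
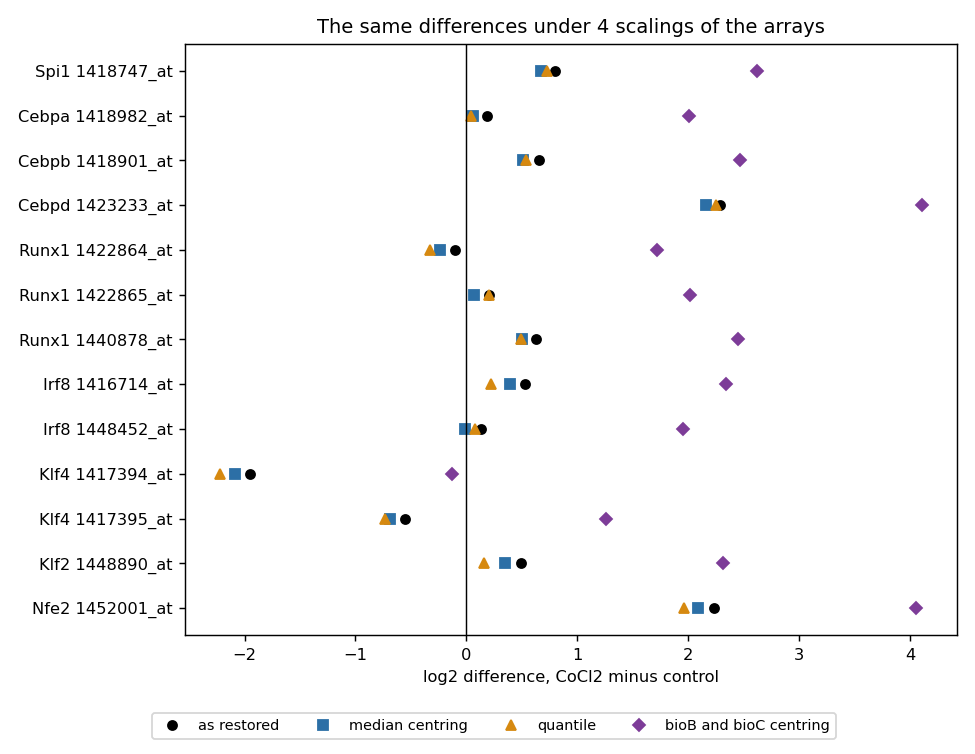
Log2 difference, CoCl2 minus control, of the 13 tested probe sets under 4 scalings: as restored (black circles), median centring (blue squares), quantile normalization (orange triangles) and centring on bioB and bioC (purple diamonds). Nfe2 and Cebpd lie between 1.96 and 4.11 under all of them, and Klf4 1417394_at between -2.22 and -0.13.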

How the data were processed

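Whole-blood RNA was amplified with biotin label and hybridised to 1 Affymetrix array per sample, per the labels' protocols, and per the submitters' processing notes GCRMA and Partek were used. In the deposited values each cell is a score, namely a log2 value without its decimal point; the point was restored from the digits (1261 of 360808 cells were ambiguous and took the reading nearest to another array of the probe set, without use of groups). On simulated damage 99.98% of cells, and 93.43% of ambiguous ones, returned within 0.005. The simulation started from the restored values and used the same damage rules, so it does not measure misreadings of the real cells. That the values are log2 was assumed. Only readings within a fixed range taken as plausible for log2 values were admitted, so the restored range of 1.69 to 16.89 cannot show it. The design had assumed log2 values as deposited; the test was kept. The deposited SAM table gives the authors' score, numerator, fold change and q-value in percent, per the file headers, with settings not given in the sources used here. Its numerator was read here as a log2 difference. The fold change does not always follow from it: Runx1 1422864_at has 0.05 beside a fold change of 0.997.

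limma 3.58.1 (R 4.3.3, lmFit and eBayes) compared 4 CoCl2 with 4 control arrays over 22518 probe sets with a mean above 2.90, two-sided, Benjamini-Hochberg adjusted; the fit was tested on simulated data. Differences between 10 pairs of member probe sets of 1 gene or family, tested after values were seen by two-sided exact permutation (scipy 1.17.1), are adjusted over these 10. All members are named. Members and lists were chosen with earlier results of these data known. The planned lists of companion factors, targets and cell type markers could not be matched to probe sets and are not analysed here. Promoters are RefSeq's (GRCm38.p6). The number of arrays limits the precision (median standard error 0.21).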

Additional observations from a re-analysis of the deposited data

Results flagged for a closer look

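Of 30 groups of 4 values, one for each probe set and treatment group, 3 had an extreme array well separated from the rest of its group; about 1 group in 20 does so by chance. For Cebpd, control array 4 stood at 3.01 while the other controls lay at 2.70 to 2.72. For Runx1 probe set 1422864_at, CoCl2 array 4 stood at 5.08 and the other CoCl2 arrays at 4.94 to 4.96. For Klf2, CoCl2 array 1 stood at 6.77 and the other CoCl2 arrays at 6.33 to 6.36. Without that array the Klf2 difference was 0.38 (limma adjusted p = 0.0708).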

How the results depend on the processing

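Of 18 limma alternatives, Nfe2 stayed past the threshold in 18, Klf4 1417394_at in 17, Runx1 1440878_at in 16 and Klf2 in 8, and Cebpd in 10 of the 17 that tested it. Member probe sets that rose numbered 4, and 6 with array weights, 2 after quantile normalization and 12 when centred on bioB and bioC. They numbered 1 in limma's treat test against 1.5-fold, which is stricter by construction. The authors' deposited table had 8, and fits without 1 array had 2 to 4. Those that fell numbered 1, and 0 when centred on bioB and bioC (which adds the controls' shift to every probe set), 2 in the authors' deposited table and 1 without any array. All tested probe sets past the threshold numbered 10163, and 6144 in the upper 25% (fewer tested), 21018 centred on bioB and bioC, 3085 in the treat test, 17184 in the authors' deposited table (cause not tested) and 8012 to 10297 without 1 array. Cebpd was also lost without the filter (adjusted p = 0.0994) and in the treat test (0.121), and Runx1 1440878_at after quantile normalization (0.0536) and in the treat test (0.898). Signs turned for Runx1 1422864_at (1.72 centred on bioB and bioC), Klf4 1417395_at (1.26 centred on bioB and bioC), Irf8 1448452_at (-0.01 after median centring, -0.08 to 0.31 without 1 array) and Runx1 1422865_at (-0.01 to 0.35 without 1 array). For Runx1 1422864_at the authors' deposited table gave 0.05 but a fold change of 0.997, so its sign there is unclear. With the replicate number as a block, 5 members passed: Klf2 was lost (adjusted p = 0.0637) and Spi1 gained (0.0312). Same-numbered arrays of the groups did not deviate together (r from -0.038 to 0.020). This cannot decide whether the numbers pair them, since paired arrays need not share a deviation. Pairs of member probe sets kept their sign after quantile normalization and without each array, where 0.0571 is the smallest possible p. The alternatives for companion factors and target genes were not run, for lack of gene names.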
